A study of Homo sapiens with 9 samples.

Results

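The 10 genes described here encode chaperones, degradation factors and sensors of the endoplasmic reticulum (ER). They are HSPA5, HSP90B1, CALR, PDIA4, DNAJB9, SEL1L, HERPUD1, XBP1, ATF6 and ERN1. They were taken by gene name from the 60623 genes of the deposited tables, each name matched 1 identifier there, and all 10 passed the filter on low values in every comparison. RNA was sequenced from U937, a human monocytic leukaemia cell line, in 3 stable lines at 0, 12 and 48 h of doxycycline (5 μg/ml), which induces the Tet-on vector that each line carries. The AML1-ETO line expressed the fusion protein of the t(8;21) translocation with an HA tag, the ETO2-GLIS2 line expressed the fusion protein of a paediatric megakaryoblastic leukaemia with an HA tag, and the control line carried the empty vector. Control cells below are those of the empty vector line. The lines were made by retroviral transduction, and the fusion lines were single-cell clones obtained by limiting dilution, so a difference between lines at 0 h cannot be told apart from a difference between clones. All 3 lines received doxycycline, control cells included, and all were grown in Tet-free serum.

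Each of the 9 conditions had 1 library. No comparison therefore had a replicate check and no p-value was computed. Values are FPKM, reads scaled to exon length and to library size. How exon length was set is not given, so comparisons of levels between genes are approximate. Differences between libraries are log2 fold changes with a pseudocount of 0.01 FPKM, and "rose" and "fell" are used for changes past 2-fold in genes with a mean of at least 1 FPKM. The intervals in parentheses are exact 95% Clopper-Pearson intervals of the ratio of reads, and they cover counting error only, not the spread between cultures. Between 15136398 and 18443639 reads on genes stood behind each library, as computed from the FPKM values. RUNX1T1, whose sequence AML1-ETO carries, stood at 0.512, 22.2 and 28.7 FPKM at 0, 12 and 48 h in AML1-ETO cells and at most at 0.0240 FPKM elsewhere. GLIS2 stood at 2.39, 6.79 and 8.85 FPKM in ETO2-GLIS2 cells, and CBFA2T3, which encodes ETO2, at 4.10, 11.4 and 12.6 FPKM. In the other lines GLIS2 lay between 2.47 and 5.60 FPKM and CBFA2T3 between 0.220 and 6.38 FPKM, so both genes were above all other libraries at 12 and 48 h of ETO2-GLIS2 induction but not at 0 h. Of 6 myeloid markers, PTPRC, CD33, LYZ and SPI1 were above 1 FPKM in all libraries. Of the markers of other cell types, EPCAM, CD3E and HBB were at 0 in all 9 libraries, ALB was at most at 0.09 FPKM and COL1A1 at most at 0.27 FPKM. The summed myeloid markers, which LYZ dominates, went from 1100 to 86.9 FPKM between 0 and 48 h in AML1-ETO cells, from 618 to 518 in control cells and from 1417 to 481 in ETO2-GLIS2 cells. Their part in the results below was not tested, and in bulk RNA a change in the mix of cells and a change in RNA per cell cannot be told apart.

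Secreted and membrane proteins fold in the ER with the help of chaperones such as HSPA5 (BiP), HSP90B1 (GRP94) and CALR (calreticulin) and of disulfide isomerases such as PDIA4. When unfolded proteins build up, the sensors ERN1 (IRE1), ATF6 and EIF2AK3 (PERK) start the unfolded protein response. ERN1 splices the XBP1 mRNA, ATF6 is cleaved to a transcription factor, and both routes raise chaperone and degradation genes. EIF2AK3 phosphorylates the translation factor eIF2α, which favours translation of ATF4, but 3 other kinases phosphorylate the same factor in response to other stresses. The genes were followed through time to see whether ER chaperones moved together with ATF4 and its targets. Gene-level FPKM shows neither XBP1 splicing, nor ATF6 cleavage, nor eIF2α phosphorylation, nor protein.

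The promoters of these genes are shown because those of the ER stress genes share a known sequence element. RefSeq promoter windows (GRCh38.p14) were found for 10 of 10 genes, with a pair of windows each for PDIA4 and XBP1, and the 250 bases before the start were searched on both strands. The ER stress response element, searched as CCAAT and CCACG with 9 bases of any kind between, was present in 26 of 35116 windows of the whole table (0.0740%), and in those of HSPA5, HSP90B1, CALR and XBP1. ER stress response element II, searched as ATTGG and CCACG with 1 base of any kind between, was present in 18 windows (0.0513%), among them that of HERPUD1. The letters TTGCATCA, a form of the C/EBP-ATF response element bound by ATF4 dimers, were present in 271 windows (0.772%), also including that of HERPUD1. The letters TGACGTGG, a form of the unfolded protein response element, were present in 215 windows (0.612%) and in none of the 12 windows of these genes. No match overlapped another. The windows follow 5′ to 3′ on the gene's strand, with the matches in capitals.
HSPA5, chr9:125241344-125241593, minus strand, element at bases 66 to 48 before the start: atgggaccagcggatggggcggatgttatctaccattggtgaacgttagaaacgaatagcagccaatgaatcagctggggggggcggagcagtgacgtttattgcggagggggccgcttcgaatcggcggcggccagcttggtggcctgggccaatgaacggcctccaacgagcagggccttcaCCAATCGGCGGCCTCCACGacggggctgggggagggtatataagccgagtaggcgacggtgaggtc
HSP90B1, chr12:103930160-103930409, plus strand, elements at bases 194 to 176 and, on the opposite strand, at bases 89 to 71 before the start: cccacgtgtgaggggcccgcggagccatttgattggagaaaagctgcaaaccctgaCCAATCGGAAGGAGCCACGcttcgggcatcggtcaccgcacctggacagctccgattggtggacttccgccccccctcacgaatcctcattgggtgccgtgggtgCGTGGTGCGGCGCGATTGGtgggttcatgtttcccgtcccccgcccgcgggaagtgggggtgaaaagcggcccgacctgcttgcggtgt
CALR, chr19:12938359-12938608, plus strand, element on the opposite strand at bases 225 to 207 before the start: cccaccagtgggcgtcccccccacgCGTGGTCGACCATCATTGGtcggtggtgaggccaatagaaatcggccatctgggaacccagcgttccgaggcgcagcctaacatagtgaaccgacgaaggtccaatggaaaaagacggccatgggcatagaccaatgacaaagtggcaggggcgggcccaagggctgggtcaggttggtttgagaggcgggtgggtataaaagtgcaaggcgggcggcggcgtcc
XBP1, chr22:28800570-28800819, minus strand, element at bases 52 to 34 before the start: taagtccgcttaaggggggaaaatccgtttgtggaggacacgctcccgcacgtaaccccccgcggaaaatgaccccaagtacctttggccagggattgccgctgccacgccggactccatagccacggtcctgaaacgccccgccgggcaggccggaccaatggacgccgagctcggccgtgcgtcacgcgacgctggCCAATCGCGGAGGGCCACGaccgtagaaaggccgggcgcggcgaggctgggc
HERPUD1, chr16:56931892-56932141, plus strand, C/EBP-ATF element at bases 176 to 169 and element II at bases 117 to 107 before the start: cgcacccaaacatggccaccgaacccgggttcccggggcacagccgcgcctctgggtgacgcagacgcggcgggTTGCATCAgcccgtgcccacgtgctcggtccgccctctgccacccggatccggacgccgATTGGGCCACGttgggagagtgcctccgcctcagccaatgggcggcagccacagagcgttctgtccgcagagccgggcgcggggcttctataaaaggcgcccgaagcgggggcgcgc
A match is a description of the letters, not of factor binding, and genes with the first element went in different directions below.

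The 4 major chaperones were lower, not higher, at 12 h of doxycycline in all 3 lines. HSPA5, HSP90B1, CALR and PDIA4 lay below the 0 h library of their line in 3 of 3 lines, by -0.34 to -0.94 on the log2 scale, and no interval held 0. None of the 10 genes was past 2-fold at 12 h, against 5.64% of all genes tested that rose and 1.88% that fell in control cells, 6.57% and 2.39% in AML1-ETO cells, and 3.03% and 1.46% in ETO2-GLIS2 cells. At 48 h PDIA4 fell in all 3 lines, CALR fell in both fusion lines and HSP90B1 fell in ETO2-GLIS2 cells, while HSPA5 was near its 0 h level in the empty vector and AML1-ETO lines. HERPUD1 rose in the empty vector and AML1-ETO lines and DNAJB9 rose in AML1-ETO cells. Counted over the 10 genes at 48 h, 1 rose and 1 fell in control cells, where 8.00% of all genes tested rose and 2.99% fell. In AML1-ETO cells 2 rose and 2 fell, against 17.3% and 11.3% of all genes. In ETO2-GLIS2 cells 0 rose and 3 fell, against 10.8% and 2.54% of all genes. The median log2 fold change of the 10 genes at 48 h was 0.34, 0.27 and 0.03 in the empty vector, AML1-ETO and ETO2-GLIS2 lines, beside 0.16, 0.22 and 0.16 for all genes tested. Rescaling the libraries by their median ratio lowered every log2 fold change by 0.12 to 0.17. Then 1 rose and 2 fell in control cells at 48 h, against 5.72% and 4.16% of all genes, and 1 rose and 2 fell in AML1-ETO cells, against 13.7% and 13.7%. In ETO2-GLIS2 cells 0 rose and 3 fell, against 8.11% and 3.45%. The medians of the 10 genes became 0.19, 0.11 and -0.14. At 12 h PDIA4 fell in control cells, where 2.33% of all genes fell, and CALR and PDIA4 fell in AML1-ETO cells, where 3.36% did. Changes below are for FPKM as deposited.

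**Figure D1:**
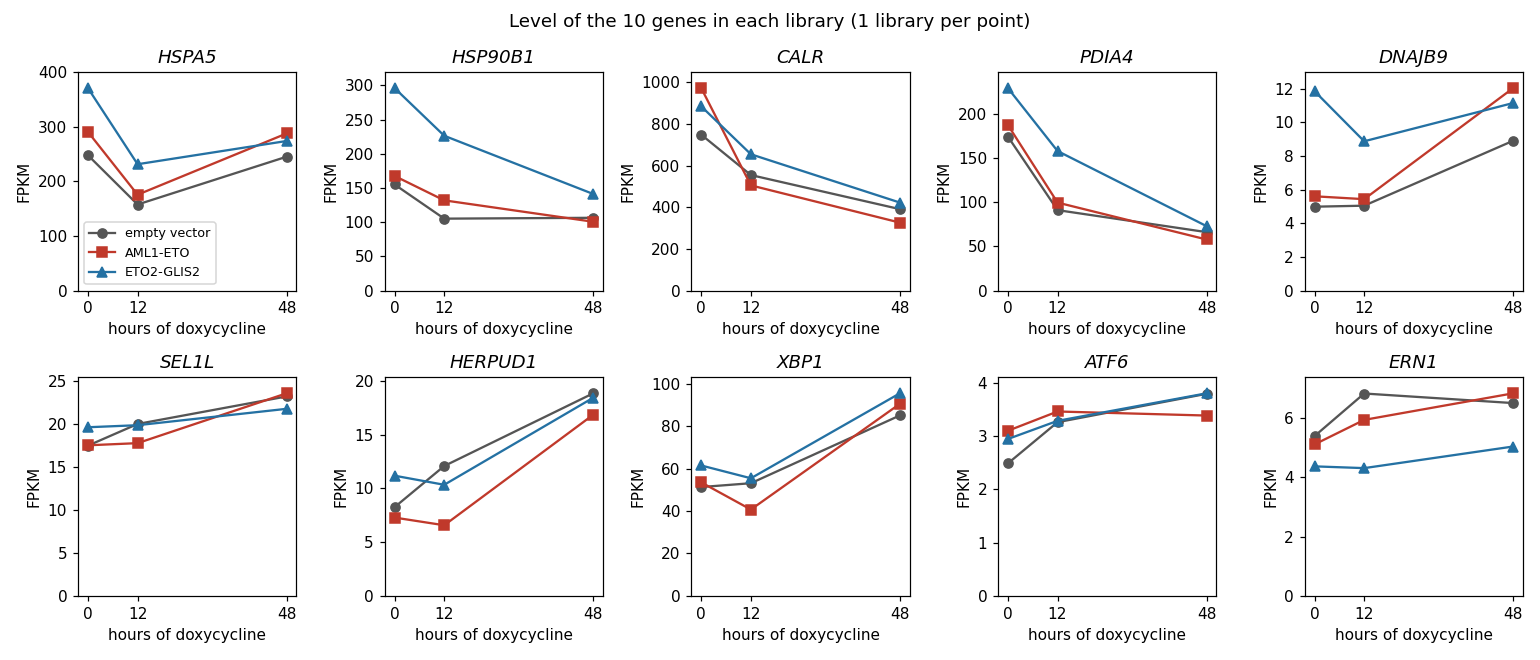
FPKM (vertical axes, linear from 0) of the 10 genes against hours of doxycycline, with 1 point per library and a line for each of the empty vector, AML1-ETO and ETO2-GLIS2 lines. CALR, PDIA4 and HSP90B1 end lower than they start in all 3 lines, HSPA5 dips at 12 h, and HERPUD1 and XBP1 end higher in all 3.

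HSPA5 (ENSG00000044574, chromosome 9, 125234853 to 125241343 on GRCh38) encodes BiP, the ER member of the HSP70 family, which binds unfolded proteins and holds the sensors inactive. It stood at 248, 158 and 245 FPKM at 0, 12 and 48 h in control cells, at 291, 176 and 288 in AML1-ETO cells, and at 371, 231 and 274 in ETO2-GLIS2 cells. The 12 h library was the lowest of its line each time, and the uninduced ETO2-GLIS2 library was the highest of all. The 12 h log2 fold changes were -0.65 (-0.69 to -0.62), -0.73 (-0.76 to -0.69) and -0.68 (-0.71 to -0.65) in that order of lines. At 48 h the log2 fold change was -0.02 (-0.05 to 0.02) in control cells and -0.02 (-0.05 to 0.01) in AML1-ETO cells, both intervals holding 0. In ETO2-GLIS2 cells it was -0.44 (-0.46 to -0.41). On rescaled libraries these values were -0.17, -0.18 and -0.60.

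HSP90B1 (ENSG00000166598, chromosome 12, 103930410 to 103947926) encodes GRP94, the ER member of the HSP90 family, which folds integrins and Toll-like receptors among other clients. Its level was 155, 105 and 107 FPKM in control cells, 168, 132 and 101 in AML1-ETO cells, and 296, 226 and 141 in ETO2-GLIS2 cells. The ETO2-GLIS2 line had the highest level at each time, and the gap between lines was smallest at 48 h. Control cells were at their lower level by 12 h, with log2 fold changes of -0.56 (-0.60 to -0.52) at 12 h and -0.54 (-0.58 to -0.50) at 48 h. The fusion lines went on down between 12 and 48 h, to -0.74 (-0.78 to -0.69) in AML1-ETO cells and -1.07 (-1.10 to -1.04) in ETO2-GLIS2 cells. In the annotation 6.95% of its 13092 exon bases lay opposite exons of another gene and 1.0% were shared on the same strand. The values imply an exon length of 4695 bases, so these shares may differ for the exons counted. The library kit did not mark strand. Its pseudogenes HSP90B2P and HSP90B3P were at most at 0.129 and 0.0780 FPKM.

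CALR (ENSG00000179218, chromosome 19, 12938609 to 12944489) encodes calreticulin, the calcium-binding lectin chaperone of glycoproteins. It was the most abundant of the 10 genes in every library, at 748, 554 and 391 FPKM in control cells, 971, 505 and 326 in AML1-ETO cells, and 884, 654 and 422 in ETO2-GLIS2 cells. Each line stepped down at both times, and the 3 libraries at 48 h were the lowest of the 9. At 12 h the log2 fold change was -0.94 (-0.97 to -0.92) in AML1-ETO cells, but -0.43 (-0.46 to -0.41) in both other lines. At 48 h it was -0.94 (-0.96 to -0.91) in control cells, -1.57 (-1.60 to -1.55) in AML1-ETO cells and -1.07 (-1.09 to -1.04) in ETO2-GLIS2 cells. The uninduced AML1-ETO library started 0.38 above the empty vector library on the log2 scale, and its 48 h library ended 0.26 below. In the annotation 9.64% of CALR exon bases lay opposite exons of another gene.

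PDIA4 (ENSG00000155660, chromosome 7, 149003051 to 149028505) encodes ERp72, a protein disulfide isomerase. It had the widest range of the 10 genes, with a highest level 3.96 times its lowest. The values were 174, 91.1 and 66.2 FPKM in control cells, 187, 99.6 and 57.9 in AML1-ETO cells, and 229, 158 and 73.0 in ETO2-GLIS2 cells. The 3 uninduced libraries were the highest and the 3 libraries at 48 h the lowest, with no overlap between times. The 48 h log2 fold changes were -1.40 (-1.45 to -1.34), -1.69 (-1.76 to -1.64) and -1.65 (-1.70 to -1.60), the only fall past 2-fold among the 10 genes that all 3 lines shared. At 12 h the empty vector and AML1-ETO lines had gone down by similar amounts, -0.94 (-0.99 to -0.89) and -0.91 (-0.96 to -0.86), and ETO2-GLIS2 cells by less, -0.54 (-0.57 to -0.50).

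DNAJB9 (ENSG00000128590, chromosome 7, 108569874 to 108574850) encodes ERdj4, an HSP40 cochaperone of BiP that also represses ERN1. It was low beside the major chaperones, at 4.99, 5.05 and 8.91 FPKM in control cells, 5.61, 5.44 and 12.0 in AML1-ETO cells, and 11.9, 8.88 and 11.2 in ETO2-GLIS2 cells. The ETO2-GLIS2 line held before doxycycline about the level that AML1-ETO cells reached at 48 h. These values rest on 194 to 555 reads, so the intervals are wide. At 48 h the log2 fold change was 0.83 (0.58 to 1.09) in control cells, 1.10 (0.87 to 1.33) in AML1-ETO cells and -0.09 (-0.27 to 0.09) in ETO2-GLIS2 cells. At 12 h the empty vector and AML1-ETO values, 0.02 (-0.27 to 0.31) and -0.04 (-0.32 to 0.23), held 0 in their intervals, and the ETO2-GLIS2 value was -0.42 (-0.61 to -0.23). Rescaling turned the 12 h value of control cells below 0 and took the AML1-ETO rise at 48 h under 2-fold.

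HERPUD1 (ENSG00000051108, chromosome 16, 56932142 to 56944864) encodes a membrane component of the complex that moves misfolded proteins out of the ER for degradation. It stood at 8.25, 12.1 and 18.8 FPKM in control cells, 7.28, 6.57 and 16.8 in AML1-ETO cells, and 11.2, 10.3 and 18.4 in ETO2-GLIS2 cells. The 3 libraries at 48 h were the highest of the 9, and the step between 0 and 12 h differed between lines. At 12 h control cells were already higher, by 0.55 (0.41 to 0.70), while the AML1-ETO and ETO2-GLIS2 values were -0.15 (-0.32 to 0.02) and -0.11 (-0.24 to 0.02). At 48 h HERPUD1 rose by 1.19 (1.06 to 1.32) in control cells and by 1.21 (1.07 to 1.35) in AML1-ETO cells, with overlapping intervals. The ETO2-GLIS2 value was 0.72 (0.61 to 0.84), from a higher start.

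SEL1L (ENSG00000071537, chromosome 14, 81471547 to 81533853) encodes the adaptor of the HRD1 ubiquitin ligase in ER-associated degradation. Its level moved least, from 17.5 to 20.01 and 23.2 FPKM in control cells, from 17.5 to 17.8 and 23.6 in AML1-ETO cells, and from 19.6 to 19.9 and 21.8 in ETO2-GLIS2 cells. The highest library was 1.35 times the lowest. At 48 h the log2 fold changes were 0.41 (0.34 to 0.48), 0.43 (0.36 to 0.50) and 0.15 (0.08 to 0.22), the last of which changed sign on rescaling, as did the 12 h values of both fusion lines (0.02 and 0.02).

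XBP1 (ENSG00000100219, chromosome 22, 28794560 to 28800569) encodes the transcription factor whose mRNA ERN1 splices. Its total mRNA stood at 51.3, 53.1 and 85.0 FPKM in control cells, 53.5, 40.7 and 90.5 in AML1-ETO cells, and 61.4, 55.4 and 95.4 in ETO2-GLIS2 cells. The 48 h libraries were the highest in every line and exceeded all libraries of the earlier times. The 48 h log2 fold changes were close to each other, 0.73 (0.66 to 0.80), 0.76 (0.69 to 0.83) and 0.64 (0.57 to 0.70). At 12 h AML1-ETO cells were lower, by -0.39 (-0.48 to -0.31), and the empty vector value was 0.05 (-0.03 to 0.13), which turned below 0 on rescaling. Between 12 and 48 h XBP1 rose by 1.15 in AML1-ETO cells, as did DNAJB9 by 1.15 and HERPUD1 by 1.36, while 9.12% of all genes rose in that interval. In ETO2-GLIS2 cells PDIA4 fell by 1.11 over the same interval, where 2.14% of all genes fell. The pseudogene XBP1P1 was at most at 0.811 FPKM.

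The sensors themselves were low beside the major chaperones, and their highest level was 1.53 times the lowest for ATF6 and 1.59 times for ERN1. ATF6 (ENSG00000118217, chromosome 1, 161766320 to 161964070) stood at 2.49, 3.26 and 3.79 FPKM in control cells, 3.10, 3.46 and 3.38 in AML1-ETO cells, and 2.94, 3.28 and 3.80 in ETO2-GLIS2 cells. Its 48 h log2 fold change was 0.61 (0.40 to 0.82) in control cells, 0.13 (-0.07 to 0.33) in AML1-ETO cells, where rescaling changed its sign, and 0.37 (0.18 to 0.56) in ETO2-GLIS2 cells. ERN1 (ENSG00000178607, chromosome 17, 64039142 to 64130144) stood at 5.39, 6.82 and 6.50 FPKM in control cells, 5.11, 5.93 and 6.83 in AML1-ETO cells, and 4.37, 4.31 and 5.04 in ETO2-GLIS2 cells. The ETO2-GLIS2 line had the lowest ERN1 level at each time. The 48 h log2 fold changes of ERN1 were 0.27 (0.14 to 0.40), 0.42 (0.29 to 0.55) and 0.21 (0.07 to 0.34), and 4.62% of its exon bases lay opposite exons of another gene.

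**Figure D2:**
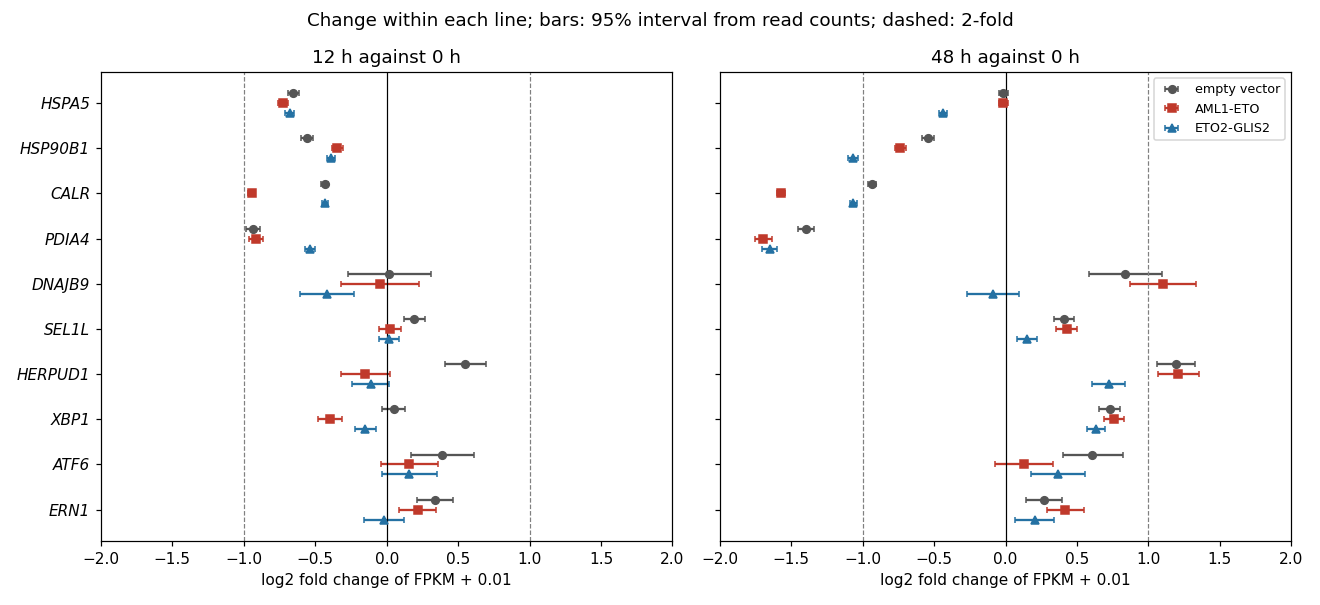
Log2 fold change against the 0 h library of the same line for the 10 genes at 12 and 48 h, with 1 point per line and bars for the 95% counting interval. The 4 major chaperones lie below 0 at 12 h in all 3 lines, and at 48 h PDIA4 is past 2-fold in all 3 lines, with log2 fold changes of -1.40, -1.69 and -1.65.

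Before doxycycline the 10 genes differed from control cells more in ETO2-GLIS2 than in AML1-ETO cells. Whether the same holds over all genes was not tested. At 0 h, 9 of the 10 genes were higher in the ETO2-GLIS2 library than in the empty vector library and 1, ERN1, was lower by -0.30, with no interval holding 0. DNAJB9 was 1.25 higher on the log2 scale (1.02 to 1.49) and was the 1 gene of the 10 past 2-fold, where 3.42% of all genes tested were past 2-fold higher. HSP90B1 was 0.93 higher (0.90 to 0.96), HSPA5 0.58, HERPUD1 0.44 and PDIA4 0.39. The AML1-ETO library differed from the empty vector library by -0.18 to 0.38, 4 of its 10 intervals held 0 and no gene was past 2-fold, against 4.90% of all genes in either direction. At 12 h HSP90B1 was past 2-fold higher in the ETO2-GLIS2 than in the empty vector library, by 1.11, where 2.57% of all genes were. At 48 h ETO2-GLIS2 against empty vector ranged from -0.37 to 0.41 and AML1-ETO against empty vector from -0.26 to 0.43. No gene of the 10 was past 2-fold in either comparison, against 6.67% and 23.5% of all genes. The median absolute log2 difference between the ETO2-GLIS2 and empty vector lines over the 10 genes was 0.35 at 0 h, 0.40 at 12 h and 0.15 at 48 h. Between the AML1-ETO and empty vector lines it was 0.14, 0.16 and 0.16.

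Ratios of genes within a library do not depend on the library total. PDIA4 stood at 0.703, 0.578 and 0.270 times HSPA5 at 0, 12 and 48 h in control cells, at 0.645, 0.567 and 0.201 in AML1-ETO cells, and at 0.618, 0.683 and 0.267 in ETO2-GLIS2 cells. CALR was 3.02 times HSPA5 in the uninduced empty vector library and 1.59 times at 48 h, with 3.34 and 1.13 in AML1-ETO cells and 2.38 and 1.54 in ETO2-GLIS2 cells. HSPA5 gained on CALR, PDIA4 and HSP90B1 between 12 and 48 h in every line. Between 0 and 48 h XBP1 went from 0.294 to 1.28 times PDIA4 in control cells, 0.285 to 1.56 in AML1-ETO cells and 0.268 to 1.31 in ETO2-GLIS2 cells. DNAJB9 also gained on HSPA5 in each line, from 0.0201 to 0.0363, from 0.0193 to 0.0419 and from 0.0320 to 0.0407 times its level. The 10 genes together took 0.476%, 0.344% and 0.344% of reads in control cells, 0.564%, 0.344% and 0.339% in AML1-ETO cells, and 0.653%, 0.477% and 0.383% in ETO2-GLIS2 cells.

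**Figure D3:**
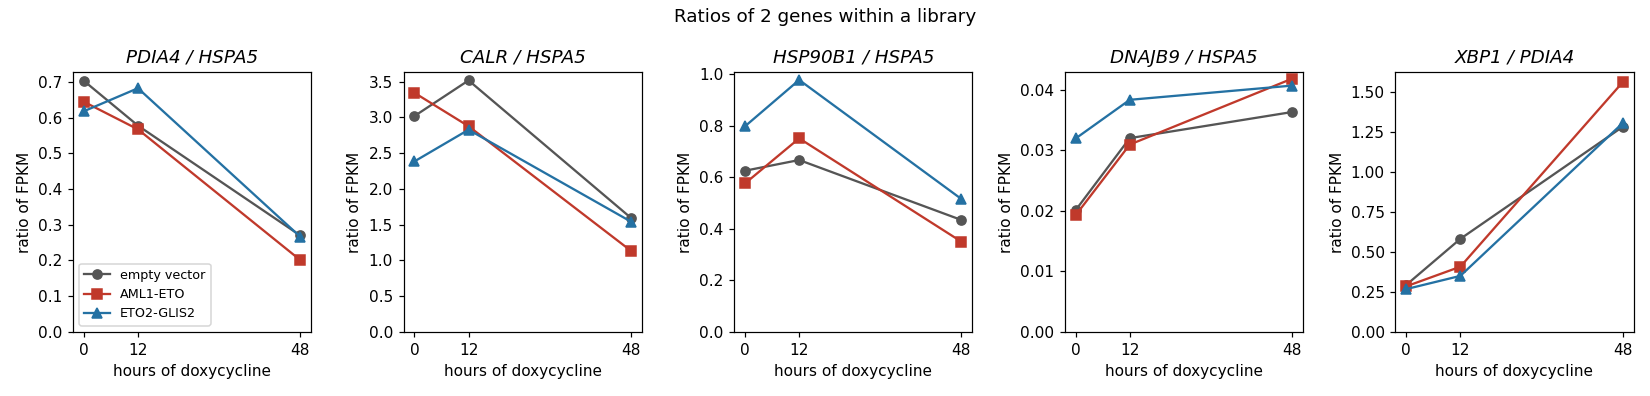
Ratios of FPKM between 2 genes of the same library (vertical axes, linear from 0) against hours of doxycycline, 1 point per library. PDIA4, CALR and HSP90B1 are lowest relative to HSPA5 at 48 h in all 3 lines, while XBP1 relative to PDIA4 ends at 1.28, 1.56 and 1.31.

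Other ER chaperones and folding enzymes had medians below 0 at 48 h in all 3 lines. Of 18 such genes, 17 passed the filter in control cells, 18 in AML1-ETO and 17 in ETO2-GLIS2 cells. At 48 h 1 rose and 2 fell in control cells, against 8.00% and 2.99% of all genes tested. In AML1-ETO cells 1 rose and 7 fell, against 17.3% and 11.3%. In ETO2-GLIS2 cells 0 rose and 2 fell, against 10.8% and 2.54%. The median log2 fold changes were -0.26, -0.78 and -0.51, beside 0.16, 0.22 and 0.16 for all genes tested. On rescaled libraries they were -0.41, -0.95 and -0.68, beside 0.01, 0.05 and -0.01. The isomerase PDIA6 went from 163 to 81.4 FPKM, from 177 to 67.1 and from 215 to 102 in the 3 lines, log2 fold changes of -1.0, -1.40 and -1.07. P4HB, the most abundant isomerase of the list, fell by 1.74 on the log2 scale in AML1-ETO cells and was lower by -0.70 and -0.54 in the empty vector and ETO2-GLIS2 lines. PDIA5 fell by 1.89 in AML1-ETO cells, from 23.8 to 6.40 FPKM. TXNDC5 fell there by 1.72, on 124 and 34 counted reads, and its interval overlapped that of control cells (-1.03, below the filter). Overlap of TXNDC5 exons with other genes was not checked. HSPA13, an HSP70-like ATPase of microsomes, went the other way, from 16.7 to 41.4 FPKM in AML1-ETO cells (1.31) and from 19.3 to 38.8 FPKM in control cells (1.01).

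Few degradation genes and no sensors outside the 10 passed 2-fold at 48 h. Of all genes tested, 8.00%, 17.3% and 10.8% rose and 2.99%, 11.3% and 2.54% fell in the empty vector, AML1-ETO and ETO2-GLIS2 lines. Beside these shares, counts in lists this short say little. Of 12 degradation genes 11 passed the filter, 1 rose (EDEM1 in AML1-ETO cells, from 32.0 to 87.4 FPKM, 1.45) and none fell in the 3 lines at 48 h. SELENOS, a receptor of the export complex, was 1.0 higher on the log2 scale in both the empty vector and AML1-ETO lines, just under the limit, and 0.27 higher in ETO2-GLIS2 cells. DERL2, a channel component, had 0.37, 0.69 and 0.13. DERL3, a derlin that the unfolded protein response raises, was the degradation gene below the filter and is named because of its values. Its reads went from 59 to 14 and 5 in control cells, from 44 to 14 and 5 in AML1-ETO cells, and from 68 to 36 and 7 in ETO2-GLIS2 cells. EIF2AK3, the PERK sensor, stood at 1.16, 1.06 and 1.14 FPKM in control cells, 1.68, 1.72 and 1.83 in AML1-ETO cells, and 1.77, 1.03 and 1.25 in ETO2-GLIS2 cells. The ETO2-GLIS2 line was thus lower at both times, by -0.78 (-1.15 to -0.42) and -0.50 (-0.86 to -0.15), on 88 to 179 reads per library. None of the other sensors and proteases was past 2-fold at 48 h. The log2 fold changes of ATF6B, an ATF6 paralogue, were 0.07, 0.08 and 0.26, those of the protease MBTPS1 -0.07, 0.41 and 0.12, and those of the protease MBTPS2, which with MBTPS1 cleaves ATF6, 0.52, 0.94 and 0.45. CREB3L2, a membrane-bound transcription factor, had -0.73, -0.18 and -0.15, and ERN2, a relative of ERN1, was at 0 in all 9 libraries, which allows up to 3 reads in each.

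Of 17 genes of ER translocation and transport, 16 passed the filter. At 48 h 8.00%, 17.3% and 10.8% of all genes tested rose and 2.99%, 11.3% and 2.54% fell in the 3 lines. SEC24D, a coat protein of vesicles leaving the ER, fell in control cells (-1.01) and in ETO2-GLIS2 cells (-1.0) and was lower by -0.48 in AML1-ETO cells, and no other gene of that list was past 2-fold at 48 h. KDELR2, a receptor that returns chaperones to the ER, was lower in all 3 lines, by -0.55, -0.31 and -0.96. Its lower level at 12 h, by -0.71, -0.34 and -0.68, went beside that of HSPA5. SEC61B, a subunit of the translocation channel, had 0.68, 0.93 and -0.32.

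Most genes of the PERK and ATF4 branch rose in all 3 lines at 48 h, whereas the 10 genes were split. HSPA5, HSP90B1, CALR and PDIA4 did not rise in any line, but HERPUD1 rose in the empty vector and AML1-ETO lines and DNAJB9 in AML1-ETO cells. XBP1 was higher in all 3 lines at 48 h, by 0.73, 0.76 and 0.64. Of 11 genes of the branch 9 passed the filter. At 48 h 7 rose in control cells, 7 in AML1-ETO and 8 in ETO2-GLIS2 cells, against 8.00%, 17.3% and 10.8% of all genes. None fell, and the medians were 1.20, 2.01 and 1.42. On rescaled libraries 7, 7 and 6 rose, against 5.72%, 13.7% and 8.11% of all genes. At 12 h 4, 3 and 0 genes of the branch had risen, against 5.64%, 6.57% and 3.03%. ATF4 itself went from 109 to 194 and 249.4 FPKM in control cells, from 86.7 to 198 and 312 in AML1-ETO cells, and from 86.8 to 154 and 217 in ETO2-GLIS2 cells. The 48 h log2 fold changes of ATF4 were 1.20, 1.85 and 1.32, at the time when HSPA5 stood at -0.02, -0.02 and -0.44. DDIT3, which encodes the stress factor CHOP, went from 0.80 to 8.65 FPKM, from 1.20 to 7.89 and from 2.65 to 8.00, log2 fold changes of 3.42, 2.71 and 1.59. CHAC1, a glutathione-degrading enzyme, rose by 2.85, 2.89 and 2.73, and SESN2, a regulator of mTORC1, rose by 1.71, 2.50 and 2.38. TRIB3, a pseudokinase that restrains ATF4, rose by 1.62, 2.02 and 1.42. ATF3, a stress factor, rose by 1.17, 2.01 and 1.61, and PPP1R15A, which directs the phosphatase that reverses eIF2α phosphorylation, rose by 1.18, 1.43 and 1.03. VLDLR, a lipoprotein receptor, had 0.83, 0.71 and 1.07, and CEBPG, a dimer partner of ATF4, had 0.84, -0.30 and 0.41. NUPR1 had 0, 8 and 26 reads in control cells, 0, 10 and 90 in AML1-ETO cells, and 4, 21 and 73 in ETO2-GLIS2 cells. ASNS, asparagine synthetase, had 1 to 11 counted reads per library, too few for a fold change. Overlap of its exons with other genes was not checked, and whether these counts reflect its level was not tested. The control line, which has no fusion protein, was among the lines with these rises, and their size differed between lines. At 48 h the AML1-ETO value minus that of control cells was 0.65 for ATF4 and 0.84 for ATF3. It was -1.14 for CEBPG and -0.71 for DDIT3, but the DDIT3 counting intervals of these lines overlapped. The cause of the rises was not tested.

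**Figure D4:**
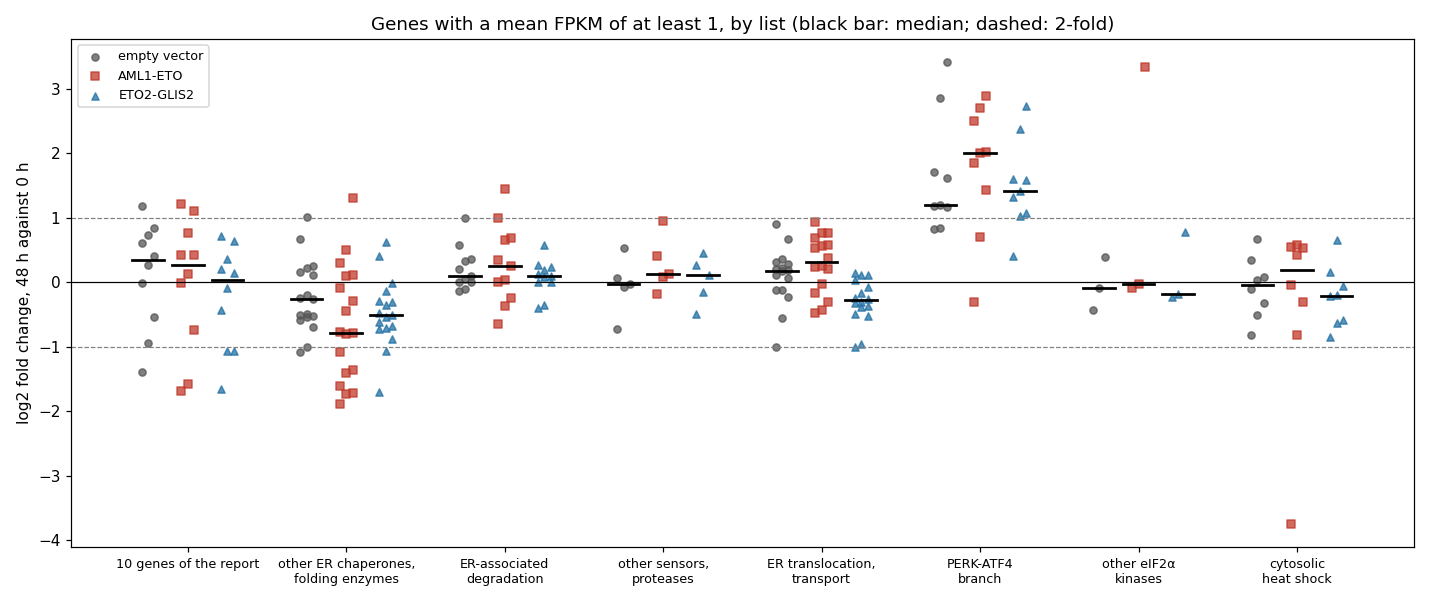
Log2 fold change at 48 h against 0 h (vertical axis) of every gene with a mean of at least 1 FPKM in 8 gene groups, 1 point per gene and line, with black bars for medians and dashed lines at 2-fold. The PERK and ATF4 genes have medians of 1.20, 2.01 and 1.42, whereas the other ER chaperones have medians of -0.26, -0.78 and -0.51 in the empty vector, AML1-ETO and ETO2-GLIS2 lines.

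The other eIF2α kinases respond to haem shortage (EIF2AK1), double-stranded RNA (EIF2AK2, PKR) and amino acid shortage (EIF2AK4, GCN2). EIF2AK1 had 48 h log2 fold changes of -0.09, -0.10 and -0.18, and EIF2AK4 had -0.43, -0.03 and -0.23. EIF2AK2 rose from 8.79 to 89.1 FPKM in AML1-ETO cells, a log2 fold change of 3.34 (3.27 to 3.42), beside 0.40 in control cells and 0.78 in ETO2-GLIS2 cells. These are mRNA levels and carry no measure of kinase activity. Of 8 cytosolic heat shock genes none rose in any line at 48 h, against 8.00%, 17.3% and 10.8% of all genes. The 1 that fell was HSPA4L in AML1-ETO cells, from 2.60 to 0.184 FPKM (-3.75), where 11.3% of all genes fell. HSP90AA1 had -0.81 there, and HSPA1A, whose reads cannot be told apart safely from those of its near copy HSPA1B, had 0.67 in control cells. The medians of that list were -0.04, 0.19 and -0.21.

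Over the 9 libraries, CALR and PDIA4 had the most alike profiles among the 10 genes, with a Pearson correlation of log2 FPKM of 0.97. SEL1L and HERPUD1 had 0.95, HERPUD1 and XBP1 had 0.93, while HSP90B1 and ERN1 had -0.94 and CALR and SEL1L had -0.80. Among 7228 genes with a mean of at least 5 FPKM, those closest to PDIA4 were its relative PDIA6 (0.97) and CALR (0.97), and those closest to CALR were PDIA4 and INSIG1 (0.97), which encodes a sterol-regulated ER protein. The closest to HSPA5 were PHTF1 (0.95) and GMPPA (0.91), to HSP90B1 POLR2B (0.95) and IDH3G (0.95), and to DNAJB9 ATF2 (0.97) and COPB1 (0.96). For SEL1L they were HERPUD1 and TSG101 (0.95), for HERPUD1 INPP5B (0.96) and SEL1L, and for XBP1 HECA (0.97) and WAC (0.94). ATF6 was closest to NCF4 (0.97) and COA5 (0.97), and ERN1 to CCDC9 (0.96) and FBXL14 (0.95). The 9 points share lines and treatment times, so these values describe likeness over this series only.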

How the data were processed

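RNA-seq of 9 U937 libraries was used. The authors aligned reads to hg38 with HISAT2 (2.0.5), handled alignments with SAMtools (1.7), obtained gene counts from HTSeq (0.9.1), and deposited FPKM for 60623 genes. The kit did not mark strand. Which annotation was used and how exon length was set is not given in the sources used here. The exon length implied by the values equalled the annotated exon bases for 5 of the 10 genes. HSP90B1, CALR and ERN1 were not among these, so their exon overlaps may differ for the exons counted. Whole reads were recovered from the steps between FPKM values for 23885 of 23889 genes above 0 in at least 3 libraries, and used only for counts of reads and intervals. Fold changes use the deposited FPKM. The method was tested on simulated data. Computation used Python (3.11.15), numpy (2.4.6), pandas (2.3.3), scipy (1.17.1) and matplotlib (3.10.9).

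Each library was compared with the 0 h library of its line, and the lines at each time, as log2 of FPKM plus 0.01. A gene was called past 2-fold with a mean FPKM of at least 1. The share of all genes called is given beside the counts of each list, except where stated. The 10 genes and all lists were chosen with earlier results of these data known. All 10 were named, as was every gene of the PERK and ATF4 branch, the other eIF2α kinases and the other sensors. Of each other list, up to 3 genes with the largest absolute change at 48 h could be named, and DERL3 and HSPA13 were named after their values were seen. PDIA6 is not among the 3 of its list either, but has 1 of the profiles most like that of PDIA4. For each of the 10 genes, the 2 genes with the most alike profile were named. Coordinates and promoters come from RefSeq (GRCh38.p14). Exon overlaps were computed for the 10 genes only, on a GRCh37 annotation, of which no coordinates are printed. ChIP-seq, RT-qPCR and flow cytometry were not analysed here. The value of 1 marker gene is not reported here.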

Additional observations from a re-analysis of the deposited data

Results flagged for a closer look

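In 13 cases over all gene lists, a gene was above its 0 h library at both 12 and 48 h in one line and below it at both times in another, and 5 of these concern genes chosen for naming. Each line had 1 library per time, so the difference was not tested in any of them. DNAJB9 had log2 fold changes of 0.02 and 0.83 at 12 and 48 h in control cells and of -0.42 and -0.09 in ETO2-GLIS2 cells, which differed by 0.923 at 48 h. EIF2AK3 had 0.04 and 0.12 in AML1-ETO cells, -0.12 and -0.02 in control cells and -0.78 and -0.50 in ETO2-GLIS2 cells, so the 48 h values differed by 0.145 and by 0.623. CEBPG had 0.35 and 0.84 in control cells and -0.08 and -0.30 in AML1-ETO cells, a difference of 1.14 at 48 h. SEC61B, a subunit of the ER translocation channel, had 0.49 and 0.93 in AML1-ETO cells and -0.34 and -0.32 in ETO2-GLIS2 cells, a difference of 1.25 at 48 h. In 6 of the 13 cases all counting intervals lay on one side of 0. These were SEC61B and, among the genes not chosen for naming, SSR2, SSR3, SPCS2, HSPA1B and DNAJB1, whose 48 h values differed by 0.602, 0.772, 1.14, 0.861 and 0.788. HSPA1B shares near-identical sequence with HSPA1A, so its value is uncertain. DNAJC3, ERO1B and SEC61G, with differences of 0.248, 0.411 and 0.728, had at least 1 interval that held 0, as did DNAJB9, EIF2AK3 and CEBPG.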

How the results depend on the processing

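Of 100 counts of genes called under 9 alternatives, 84 stayed within 1.5 times the value reported and 16 did not. The 84 include the counts without the filter and with summed names, which could not change. All 10 genes passed the filter and each name matched 1 identifier. Rescaling by the median ratio gave 2 falls at 48 h (CALR, PDIA4) and 1 at 12 h (PDIA4) in control cells, and 1 rise at 48 h (HERPUD1) and 2 falls at 12 h (CALR, PDIA4) in AML1-ETO cells. It changed the sign of 7 of 60 fold changes, those of SEL1L (AML1-ETO at 12 h, ETO2-GLIS2 at both times), DNAJB9 and XBP1 (empty vector at 12 h) and ATF6 (AML1-ETO at both times). A pseudocount of 1 gave 1 rise at 48 h in AML1-ETO cells (HERPUD1). A 1.5-fold limit gave 4 rises and 2 falls at 48 h and 2 falls at 12 h in control cells, where 20.4%, 7.40% and 3.77% of all genes passed it. It gave 3 falls at 12 h in AML1-ETO cells (6.17% of all genes), and 2 rises at 48 h and 1 fall at 12 h in ETO2-GLIS2 cells (22.4% and 3.39%). With the uninduced empty vector library as reference, ETO2-GLIS2 cells had 2 rises (DNAJB9, HERPUD1) and 1 fall (PDIA4) at 48 h, and 9 of 40 fold changes of the fusion lines changed sign, among them HSP90B1 in ETO2-GLIS2 cells at 12 h (0.55). After subtracting the empty vector fold change, 0 rises and 0 falls were left at 48 h in AML1-ETO cells and 0 falls in ETO2-GLIS2 cells, and 16 of 40 fold changes changed sign. Among these were the 12 h values of HSP90B1 (0.22 and 0.17) and PDIA4 (0.03 and 0.40) in AML1-ETO and ETO2-GLIS2 cells. The share of all genes was not computed with a pseudocount of 1, with the empty vector reference or after the subtraction. A filter at a mean of 5 FPKM and a pseudocount of 0.1 changed no count either. No called value changed sign under any alternative run. No paired analysis was possible because no condition had replicate libraries to pair, and leaving out a library removes a condition. Times could be compared over the 3 lines as blocks, but the lines carry different constructs and are not replicates, and that fit was not run. DNAJB9 and ATF6 rest on the fewest reads of the 10 genes, from 194 and from 318 per library.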
